A study of Mus musculus with 6 samples.

Results

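Axon guidance ligands and their receptors were measured by bulk RNA sequencing in mouse brain cortex after experimental stroke. The genes were the rows of the deposited count table whose symbol belongs to a semaphorin, plexin, ephrin, Eph receptor, Slit, Robo, netrin or Unc5 gene, or is Dcc. This gave 69 of 24421 gene rows, made up of 20 semaphorins, 9 plexins, 8 ephrins, 14 Eph receptors, 3 Slits, 4 Robos, 4 netrins and 5 netrin receptors. The pattern also matched 2 rows of another kind, Plxna4os1 (a transcript named for the strand opposite Plxna4) and Unc5cl (an Unc5-like gene that is not a netrin receptor). All samples came from C57BL/6 mice with middle cerebral artery occlusion (MCAO), which blocks blood flow to part of the cortex. The control group of 3 samples is labelled as GFP treatment, green fluorescent protein, and the other 3 samples as NeuroD1, a transcription factor that directs cells to a neuronal fate. The series title describes intravenous gene therapy. What carried the genes, which promoter drove them, how long after the occlusion tissue was taken and the animals' age and sex were not stated in the labels. Nor do the labels tie each sample to its own animal, and p-values therefore reflect only how much these samples varied, in which technical variation may play a part.

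The libraries held 7753101 to 9698795 counts with GFP and 10843273 to 13440244 with NeuroD1, so every NeuroD1 library was deeper. Neurod1, the delivered gene, had 29 to 64 counts with GFP and 151 to 644 with NeuroD1, higher in every NeuroD1 library (log2 fold change 2.68, SE 0.45; edgeR adjusted p = 0.136). It was lowest of its group in NeuroD1 replicate 2. The files do not separate the delivered from the native gene.

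Axon guidance genes steer growing axons by attraction and repulsion at the growth cone. Semaphorins signal through plexins, often with neuropilins as co-receptors. Ephrins signal through Eph receptor tyrosine kinases by cell contact, and the ephrins themselves can signal in reverse. Slits repel through Robo receptors, and netrins attract through Dcc or repel through Unc5 receptors. In adult and injured brain the same families are also known from blood vessels, immune cells, glia and scar tissue.

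Of the 69 genes, 67 had enough counts to be tested, and Epha1 and Unc5cl did not (at most 0.968 and 1.2 CPM in any library). By edgeR's quasi-likelihood test with Benjamini-Hochberg adjustment over all 14852 tested genes, 0 guidance genes passed the threshold of 0.05, as did 0 genes of the whole table (0% of genes). The smallest adjusted p among guidance genes was 0.136, shared by Epha3, Sema3d, Plxnc1, Robo3 and Robo4. It was also the smallest over all tested genes and was shared by genes outside this set, Neurod1 among them. At an unadjusted p under 0.05 there were 23 guidance genes, 11 higher and 12 lower with NeuroD1. That is 34.3% of the tested guidance genes, against 24.0% of all tested genes (12.5% higher and 11.5% lower). The 2 groups did not overlap in 25 guidance genes (37.3%), against 29.6% of all tested genes. Of these, 11 were higher and 14 lower, against 14.2% and 15.3% of all tested genes. The log2 fold change of Plxna4os1, tested but in no family, was -0.79 (SE 0.41). The median log2 fold change was 0.04 for the guidance genes and 0.02 for all tested genes, so fitted levels lay on both sides of a middle near 0. DESeq2, the alternative test, called 13 guidance genes at an adjusted p under 0.05, 6 higher and 7 lower, against 8.91% of the genes it adjusted (5.04% higher and 3.87% lower). Limma-voom called 0. The words higher and lower below describe measured levels, since no single gene passed the main test after adjustment. Of the genes given below with a CPM value in every library, all guidance genes but Ntn1, Unc5a and Unc5d had an unadjusted p under 0.05. Epha5 and Ephb6, given below per library as percentages only, did not.

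The count of 11 higher guidance genes was 6 without GFP replicate 2, without GFP replicate 3 or without NeuroD1 replicate 1. The count of 12 lower genes was 7 without GFP replicate 2 or without NeuroD1 replicate 2. All 23 kept the sign of their fold change when any 1 library was left out. In 21 of them the groups did not overlap, so that sign was largely fixed in advance. Of the 23, 10 stayed at a p under 0.05 in each of those 6 fits, and the same share over all tested genes was not counted. These 10 were Epha3, Sema3d, Plxnc1 and Robo1 on the higher side and Robo3, Robo4, Sema4g, Epha10, Sema3f and Sema6c on the lower side.

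The promoters of the 5 guidance genes with the smallest unadjusted p are shown here, with that of Epha6. Among these 23 genes, the Epha6 window was the one to hold both forms of the E-box searched. Each is the 250 bases upstream of a RefSeq transcription start on GRCm38.p6, read 5′ to 3′ on the strand of the gene. Capitals mark CAGATG or CAGCTG, the E-box letters that NeuroD1 is known to bind, searched on both strands.
Epha3, chr16:63864176-63864425, minus strand: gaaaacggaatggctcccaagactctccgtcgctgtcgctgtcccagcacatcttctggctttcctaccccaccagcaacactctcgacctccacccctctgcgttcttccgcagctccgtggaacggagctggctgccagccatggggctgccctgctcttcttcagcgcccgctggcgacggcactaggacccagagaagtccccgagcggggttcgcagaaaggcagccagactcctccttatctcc
Sema3d, chr5:12382916-12383165, plus strand: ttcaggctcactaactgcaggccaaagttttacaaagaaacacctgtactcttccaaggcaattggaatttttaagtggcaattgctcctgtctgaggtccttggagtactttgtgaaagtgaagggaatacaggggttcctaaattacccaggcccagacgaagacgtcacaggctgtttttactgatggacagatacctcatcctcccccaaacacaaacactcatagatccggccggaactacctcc
Plxnc1, chr10:94944846-94945095, minus strand: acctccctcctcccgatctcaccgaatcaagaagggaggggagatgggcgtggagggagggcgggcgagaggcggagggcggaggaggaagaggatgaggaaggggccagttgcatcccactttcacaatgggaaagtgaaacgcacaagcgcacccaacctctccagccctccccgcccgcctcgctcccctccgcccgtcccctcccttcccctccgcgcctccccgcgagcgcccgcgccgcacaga
Robo3, chr9:37433176-37433425, minus strand: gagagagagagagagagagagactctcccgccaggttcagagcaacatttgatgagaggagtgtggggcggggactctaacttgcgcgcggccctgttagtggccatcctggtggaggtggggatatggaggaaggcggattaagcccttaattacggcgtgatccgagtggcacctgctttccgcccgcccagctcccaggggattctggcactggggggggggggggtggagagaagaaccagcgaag
Robo4, chr9:37401722-37401971, plus strand: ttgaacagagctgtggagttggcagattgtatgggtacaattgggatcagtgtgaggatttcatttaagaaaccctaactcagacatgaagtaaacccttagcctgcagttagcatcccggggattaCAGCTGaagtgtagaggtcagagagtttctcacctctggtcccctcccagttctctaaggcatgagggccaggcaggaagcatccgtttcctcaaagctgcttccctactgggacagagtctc
Epha6, chr16:60605532-60605781, minus strand: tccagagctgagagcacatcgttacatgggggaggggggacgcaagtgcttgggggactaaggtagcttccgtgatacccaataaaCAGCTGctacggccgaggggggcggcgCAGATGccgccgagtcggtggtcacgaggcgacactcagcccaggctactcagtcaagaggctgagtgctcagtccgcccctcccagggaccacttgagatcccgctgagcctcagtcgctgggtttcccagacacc
In windows of 300 bases (250 before and 50 after a start), CAGATG was present in 5 of 74 windows of the guidance genes (6.76%), against 17.2% of all 32851 promoter windows. CAGCTG was present in 12 of 74 (16.2%), against 16.3% of all windows. Those 74 windows belong to 58 of the 69 genes, and some genes have several. Among genes lower with NeuroD1 at an unadjusted p under 0.05, 6 of 13 windows held CAGCTG and 0 held CAGATG. Among the higher genes, 2 and 1 of 13 did. These are matches of letters, and no binding was measured.

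Semaphorins were the largest ligand family, and 9 of 20 (45%) had an unadjusted p under 0.05, against 24.0% of all tested genes. Of these 9, 3 were higher and 6 lower (family median log2 fold change -0.32). Levels are given as CPM, read counts brought to one library size with TMM factors, for replicates 1, 2 and 3 of each group. Sema3d, a secreted class 3 semaphorin (chromosome 5, 12383385 to 12588948, plus strand, GRCm38), measured 12.9, 5.48 and 7.17 CPM with GFP and 45.9, 21.9 and 25.9 CPM with NeuroD1. Every NeuroD1 library was above every GFP library. Its fitted level was 3.65-fold higher (log2 fold change 1.87, SE 0.40; edgeR adjusted p = 0.136). Sema3a, the founding class 3 repellent, which acts through neuropilin-1 and class A plexins, measured 14, 4.01 and 8.26 CPM with GFP and 22.8, 14.9 and 18 CPM with NeuroD1. The lowest NeuroD1 library lay just above the highest GFP library (log2 fold change 1.08, SE 0.42; edgeR adjusted p = 0.177).

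Of the other 5 class 3 semaphorins, Sema3f and Sema3g were lower at an unadjusted p under 0.05. Sema3f, a repellent that acts through neuropilin-2, measured 11.2, 15.9 and 15.9 CPM with GFP and 6.25, 8.81 and 8.08 CPM with NeuroD1, so the groups were apart with NeuroD1 below (log2 fold change -0.89, SE 0.27; edgeR adjusted p = 0.141). Sema3g, known from arterial endothelium, measured 9.11, 18.7 and 9.34 CPM with GFP and 4.67, 4.45 and 7.0 CPM with NeuroD1. GFP replicate 2 was the highest library, and the groups did not overlap (log2 fold change -1.20, SE 0.37; edgeR adjusted p = 0.141). The ratio of Sema3d to Sema3f counts within a library, which scaling cannot alter, was 1.14, 0.345 and 0.452 in the GFP libraries and 7.34, 2.48 and 3.21 in the NeuroD1 libraries. Sema3d was the more counted of the pair in every NeuroD1 library and in 1 of 3 GFP libraries. Sema3b, Sema3c and Sema3e overlapped between groups, with log2 fold changes of -0.31 (SE 0.28), -0.43 (SE 0.38) and 0.42 (SE 0.48).

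Among the membrane-bound semaphorins, Sema4d stood apart in direction from most of its class. Sema4d, also known as an immune semaphorin and a ligand of plexin-B1, measured 109, 91.1 and 79.8 CPM with GFP and 174, 162 and 125 CPM with NeuroD1. The groups did not overlap, and the fitted level was 1.65-fold higher (log2 fold change 0.72, SE 0.22; edgeR adjusted p = 0.141). Sema4g, a transmembrane ligand of the same class (chromosome 19, 44989101 to 45003397, plus strand), measured 44.7, 113 and 98.1 CPM with GFP and 28.2, 34.8 and 40.7 CPM with NeuroD1. It was lower in all 3 NeuroD1 libraries, although GFP replicate 1 lay close to them (log2 fold change -1.30, SE 0.34; edgeR adjusted p = 0.137). Sema6c, a class 6 transmembrane semaphorin, measured 26.4, 34.3 and 32.1 CPM with GFP and 13.5, 17.2 and 20.2 CPM with NeuroD1, below GFP in every library (log2 fold change -0.87, SE 0.23; edgeR adjusted p = 0.137). Sema6a, Sema6d and Sema4b were also lower in every NeuroD1 library than in any GFP library, by small amounts and with p above 0.05 (log2 fold changes -0.34 (SE 0.18), -0.27 (SE 0.18) and -0.25 (SE 0.19)).

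Sema7a, the membrane-anchored ligand of plexin-C1 and integrins, had the highest level per kilobase of exon among semaphorins. It measured 157, 131 and 105 CPM with GFP and 99.3, 56.3 and 96.8 CPM with NeuroD1, with NeuroD1 replicate 2 the lowest (log2 fold change -0.64, SE 0.28; edgeR adjusted p = 0.204). Sema5b, a transmembrane semaphorin with thrombospondin repeats, measured 15.5, 35.9 and 28.9 CPM with GFP and 12.1, 4.55 and 18.1 CPM with NeuroD1. Its groups overlapped, since NeuroD1 replicate 3 exceeded GFP replicate 1 (log2 fold change -1.20, SE 0.49; edgeR adjusted p = 0.189). The remaining semaphorins, Sema4a, Sema4c, Sema4f, Sema5a and Sema6b, overlapped between groups with log2 fold changes between -0.35 and 0.39.

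**Figure D1:**
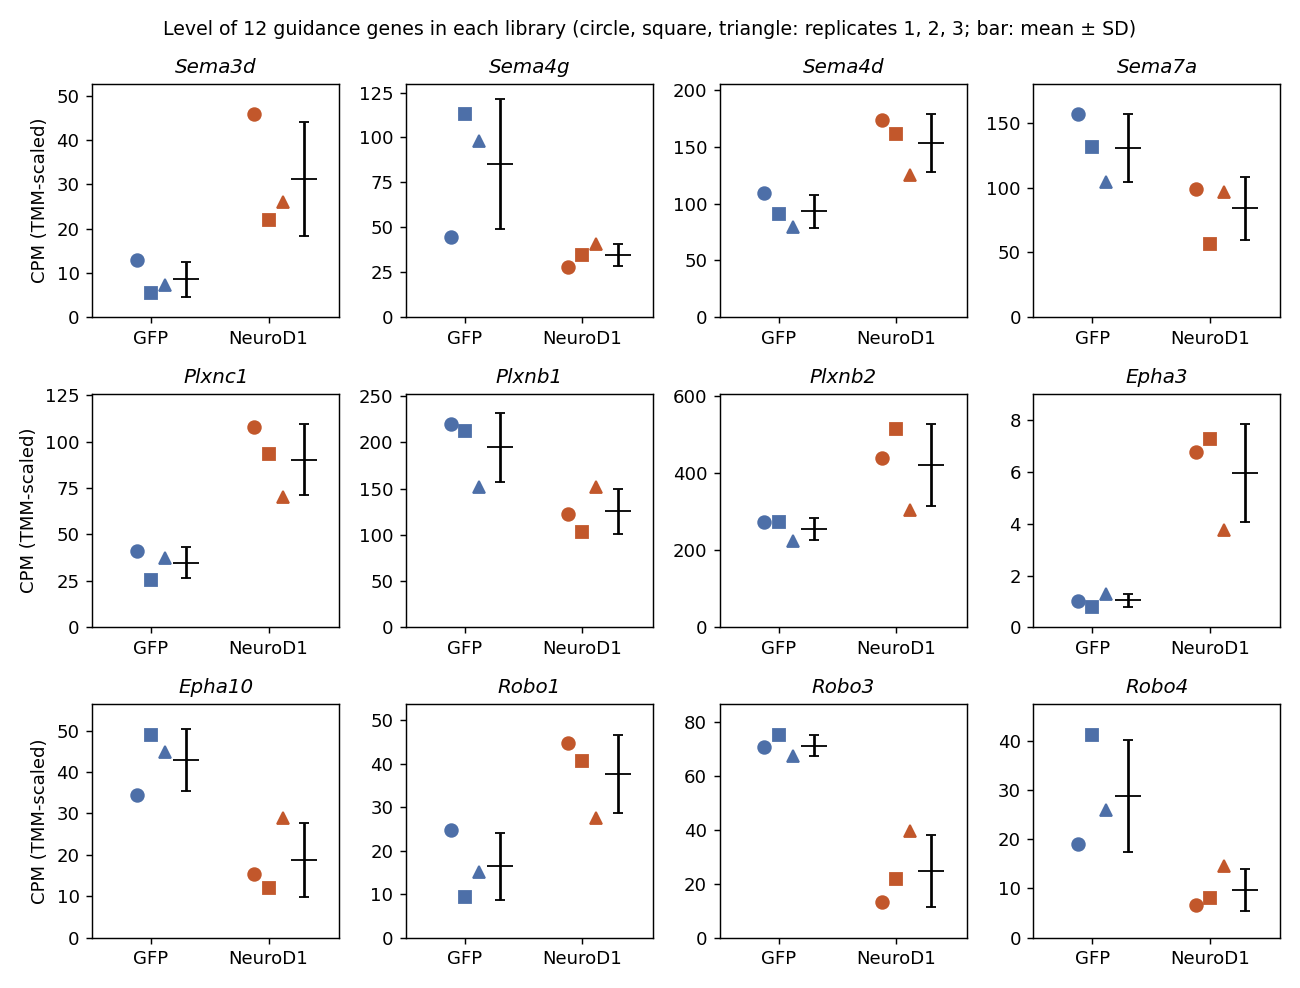
Each panel plots 1 guidance gene in TMM-scaled CPM (vertical axis, from 0) for the 3 GFP and 3 NeuroD1 libraries, with symbols for the replicates and a bar for the mean ± SD (n = 3). In each of these 12 genes the 2 groups do not overlap, and in Plxnb1, Sema7a and Sema4g the nearest libraries of the 2 groups lie close together.

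Plexins, the semaphorin receptors, had 3 of 9 genes higher and 2 lower at an unadjusted p under 0.05, with a family median of 0.50. The share at that p was 55.6%, against 24.0% of all tested genes. Plxnc1, the receptor of Sema7a (chromosome 10, 94790866 to 94944835, minus strand), measured 41.3, 25.4 and 37.5 CPM with GFP and 108, 93.2 and 70.2 CPM with NeuroD1. The lowest NeuroD1 library was well above the highest GFP library, a fitted difference of 2.6-fold higher (log2 fold change 1.38, SE 0.26; edgeR adjusted p = 0.136; DESeq2 adjusted p = 0.000566). Its ligand Sema7a had the opposite sign, and the ratio of Plxnc1 to Sema7a counts was 0.263, 0.193 and 0.358 in the GFP libraries and 1.08, 1.65 and 0.725 in the NeuroD1 libraries.

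The class B plexins had genes on both sides. Plxnb2, a receptor of class 4 semaphorins, was the guidance gene with the highest level per kilobase of exon in these cortices (33.1 ± 3.67 with GFP and 54.4 ± 13.8 with NeuroD1 CPM per kilobase, mean ± SD, n = 3). It measured 272, 272 and 223 CPM with GFP and 439.9, 515 and 305 CPM with NeuroD1, and NeuroD1 replicate 3 was the one nearest to the GFP libraries (log2 fold change 0.72, SE 0.26; edgeR adjusted p = 0.168). Plxnb1, the high-affinity receptor of Sema4d, measured 219, 212 and 152 CPM with GFP and 122, 103 and 152 CPM with NeuroD1. GFP replicate 3 and NeuroD1 replicate 3 were almost level, and the other libraries lay further apart (log2 fold change -0.63, SE 0.24; edgeR adjusted p = 0.177). The ratio of Plxnb2 to Plxnb1 counts was 1.24, 1.28 and 1.47 in the GFP libraries and 3.6, 4.99 and 2.01 in the NeuroD1 libraries. Sema4d counts relative to those of its receptor Plxnb1 were 0.498, 0.43 and 0.525 in the GFP libraries and 1.43, 1.57 and 0.826 in the NeuroD1 libraries. Both ratios were higher in every NeuroD1 library than in any GFP library, which follows from the separation of each gene in opposite directions.

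In the class A plexins, which serve class 3 and class 6 semaphorins, Plxna1 measured 89.8, 77.1 and 89.9 CPM with GFP and 148, 155 and 105 CPM with NeuroD1, higher in each NeuroD1 library (log2 fold change 0.67, SE 0.22; edgeR adjusted p = 0.147). Another annotated gene, Gm26811, shares 10.7% of the Plxna1 exon bases, and reads there cannot be told apart. Plxna3, which works with neuropilin-2 as a Sema3f receptor, measured 33.3, 32.5 and 48.5 CPM with GFP and 19.4, 20.4 and 32 CPM with NeuroD1. The groups were separated by a narrow gap, lower with NeuroD1 (log2 fold change -0.67, SE 0.27; edgeR adjusted p = 0.189). Plxna2, Plxna4 and Plxnb3 overlapped between groups, with log2 fold changes of 0.39 (SE 0.24), 0.53 (SE 0.35) and -0.40 (SE 0.21). Plxnd1, the Sema3e receptor known from endothelium, was higher in every NeuroD1 library without an unadjusted p under 0.05 (log2 fold change 0.50, SE 0.24; edgeR adjusted p = 0.247).

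**Figure D2:**
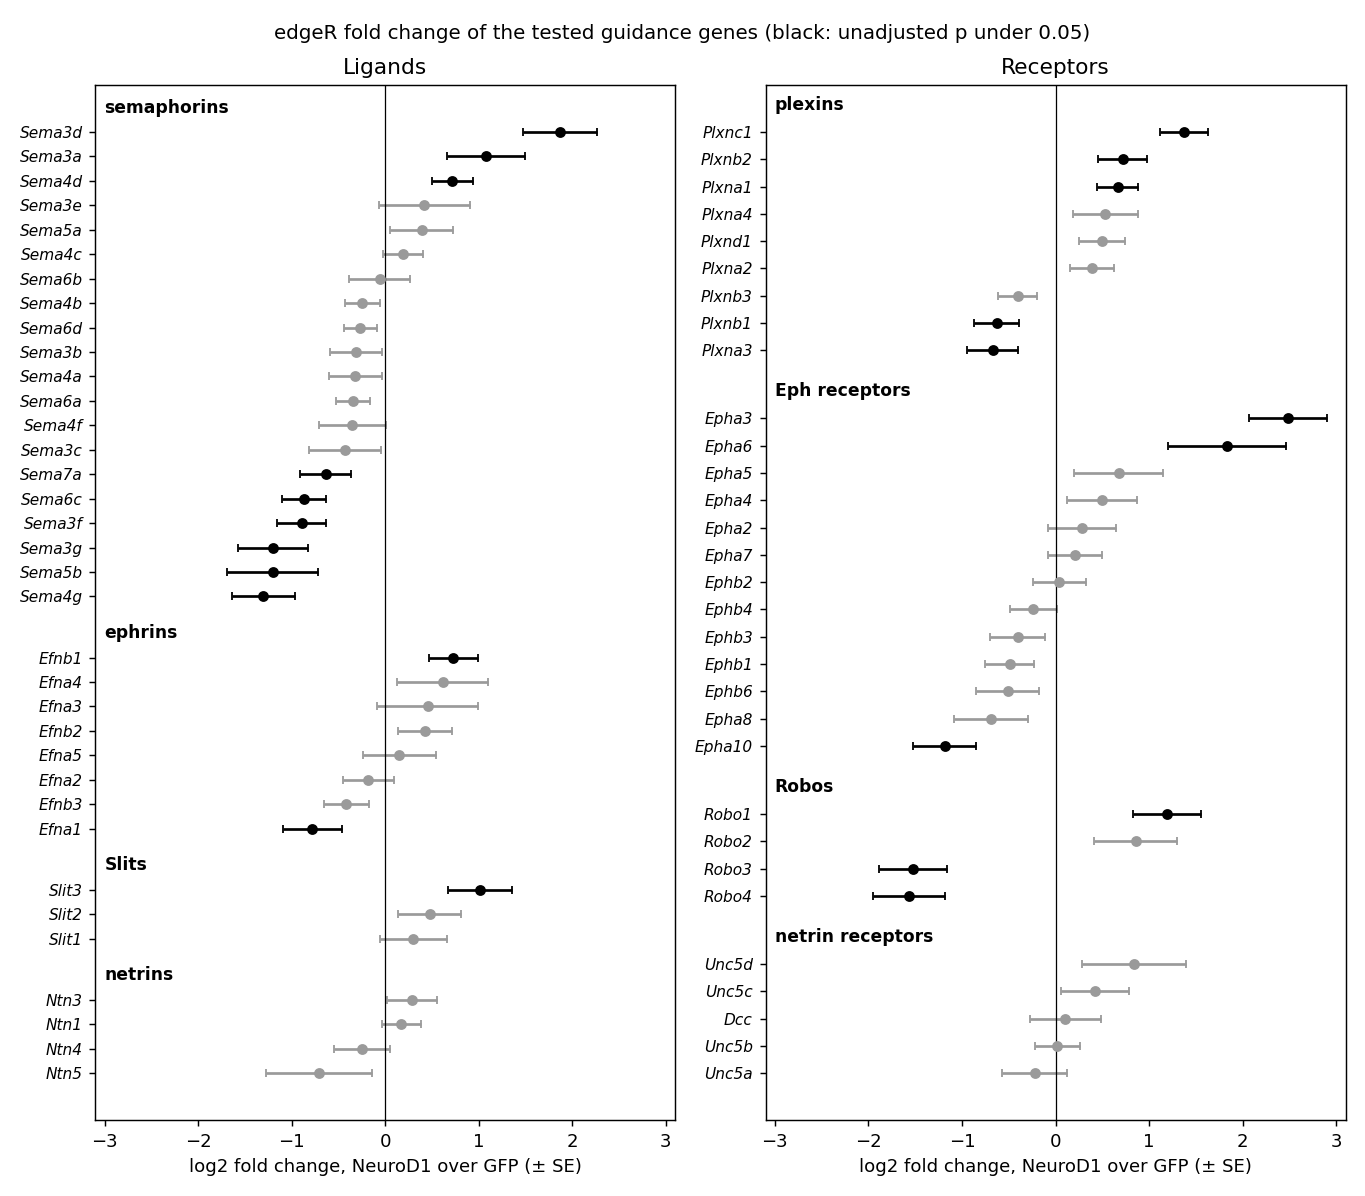
Points are edgeR log2 fold changes of NeuroD1 over GFP (horizontal axis, ± SE) for the tested genes of the ligand families (left) and receptor families (right), ordered by value within each family. Black points have an unadjusted p under 0.05. They lie on both sides of 0 in semaphorins, plexins, ephrins, Eph receptors and Robos, and there is none among netrins and netrin receptors.

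Of 8 ephrins, 1 was higher and 1 lower at an unadjusted p under 0.05. Of 13 tested Eph receptors, 2 were higher and 1 lower. These are 25% and 23.1% of the families, near the 24.0% of all tested genes. The median log2 fold change was 0.28 for ephrins and 0.04 for Eph receptors. Efnb1, a transmembrane ephrin, measured 16.8, 12.7 and 17.2 CPM with GFP and 24.4, 33.4 and 19.7 CPM with NeuroD1, without overlap and with the highest value in NeuroD1 replicate 2 (log2 fold change 0.73, SE 0.26; edgeR adjusted p = 0.163). Efna1, a lipid-anchored ephrin known from blood vessels, measured 8.51, 15.5 and 10.4 CPM with GFP and 7.15, 5.03 and 7.81 CPM with NeuroD1. These groups were narrowly apart, with GFP replicate 2 the highest (log2 fold change -0.78, SE 0.32; edgeR adjusted p = 0.191). Efnb3, the ephrin with the highest level per kilobase, overlapped between groups at 126 ± 34.3 CPM with GFP and 94.3 ± 12.3 CPM with NeuroD1 (mean ± SD, 3 libraries each). Efnb2, Efna2, Efna3, Efna4 and Efna5 overlapped as well.

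Epha3, a receptor of ephrin-A ligands (chromosome 16, 63543534 to 63864175, minus strand), had the highest fold of all tested guidance genes at low counts. It had 10, 6 and 12 raw counts in the GFP libraries and 90, 75 and 42 in the NeuroD1 libraries, or 1.01, 0.801 and 1.3 CPM and 6.78, 7.26 and 3.77 CPM. All NeuroD1 libraries were above all GFP libraries, and the fitted level was 5.62-fold higher (log2 fold change 2.49, SE 0.42; edgeR adjusted p = 0.136; DESeq2 adjusted p = 0.000254). Its GFP counts lay near the filter's minimum count of 10, so Epha3 passed the filter through its NeuroD1 libraries. With no filter its log2 fold change was 2.51. Epha6, a related receptor, measured 3.34, 1.74 and 1.52 CPM with GFP and 13.6, 2.32 and 7.81 CPM with NeuroD1. NeuroD1 replicate 2 lay within the GFP range, and the fold of 3.56-fold higher became 2.29-fold without NeuroD1 replicate 1 (log2 fold change 1.83, SE 0.63; edgeR adjusted p = 0.154).

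Epha10, a receptor whose kinase domain is inactive, measured 34.5, 49 and 44.9 CPM with GFP and 15.4, 12.1 and 29 CPM with NeuroD1. It was lower in all 3 NeuroD1 libraries (log2 fold change -1.18, SE 0.34; edgeR adjusted p = 0.139). The ratio of Epha3 to Epha10 counts was 0.0293, 0.0163 and 0.0291 in the GFP libraries and 0.441, 0.600 and 0.13 in the NeuroD1 libraries. Ephb6, also without kinase activity, had the highest level per kilobase of the Eph receptors and overlapped between groups at 83.4 ± 14.3 CPM with GFP and 58.4 ± 24.5 CPM with NeuroD1 (mean ± SD, 3 libraries each). Ephb1 and Epha8, the other Eph receptors among the 5 smallest p of the family, overlapped too, with log2 fold changes of -0.49 (SE 0.26) and -0.69 (SE 0.39). None of the 5 EphB receptors had a p under 0.05, and Epha2, Epha4, Epha5 and Epha7 had none either.

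Slits act through Robos, and the Robo family had genes on both sides. Of 4 Robos, 1 was higher and 2 lower at an unadjusted p under 0.05 (75%, against 24.0% of all tested genes). Robo1, a main Slit receptor of axons (chromosome 16, 72308306 to 73046095, plus strand), measured 24.7, 9.35 and 15.2 CPM with GFP and 44.8, 40.6 and 27.5 CPM with NeuroD1, apart from GFP in every library (log2 fold change 1.19, SE 0.36; edgeR adjusted p = 0.141). Robo2, the other classical Slit receptor, had the same sign with overlapping groups (log2 fold change 0.86, SE 0.44; edgeR adjusted p = 0.264). Robo3, which regulates the crossing of commissural axons (chromosome 9, 37415669 to 37433246, minus strand), measured 70.7, 75.2 and 67.4 CPM with GFP and 13.1, 21.8 and 39.4 CPM with NeuroD1. Its GFP libraries were close to each other and far above all NeuroD1 libraries (log2 fold change -1.52, SE 0.36; edgeR adjusted p = 0.136; DESeq2 adjusted p = 0.00622). Robo4, the Robo of endothelial cells (chromosome 9, 37401897 to 37415115, plus strand), measured 19.1, 41.3 and 26 CPM with GFP and 6.55, 8.03 and 14.5 CPM with NeuroD1, also without overlap (log2 fold change -1.57, SE 0.39; edgeR adjusted p = 0.136).

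Robo3 and Robo4 are neighbours on chromosome 9 and end towards each other, with 553 bases between the annotated ends. Whether counting used strand is not stated, and whether reads past an end were counted to the neighbour was not tested. The ratio of Robo1 to Robo3 counts was 0.35, 0.124 and 0.226 in the GFP libraries and 3.42, 1.87 and 0.697 in the NeuroD1 libraries, so Robo3 was the more counted in every GFP library and Robo1 in 2 of 3 NeuroD1 libraries. Slit3, a secreted Robo ligand, measured 8.0, 7.75 and 7.28 CPM with GFP and 19.6, 8.32 and 18.6 CPM with NeuroD1. NeuroD1 replicate 2 was just above the GFP range, while the other NeuroD1 libraries were well above it (log2 fold change 1.01, SE 0.34; edgeR adjusted p = 0.152). Slit1 and Slit2 overlapped between groups, with log2 fold changes of 0.30 (SE 0.36) and 0.48 (SE 0.34).

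Netrins and their receptors gave no gene with an unadjusted p under 0.05 (0 of 4 and 0 of 5). Ntn1, the founding netrin and the one with the highest level per kilobase, measured 17.7, 16 and 15.2 CPM with GFP and 19.6, 19.3 and 16.3 CPM with NeuroD1, a log2 fold change of 0.17 (SE 0.21). The 2 groups overlapped within a narrow band. Ntn3, Ntn4, a netrin of basement membranes, and Ntn5 had log2 fold changes of 0.29 (SE 0.27), -0.25 (SE 0.30) and -0.71 (SE 0.57), and that of Ntn5 was 0.06 without GFP replicate 1, the library with its highest value. Reads of Ntn5 are uncertain, since 23.4% of its exon bases overlap Sec1 on the opposite strand.

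Among the receptors, Unc5a, the repulsive netrin receptor with the highest level per kilobase, measured 96.8, 81.2 and 78.5 CPM with GFP and 86.3, 35.1 and 98.2 CPM with NeuroD1. A single library, NeuroD1 replicate 2, was far below the others. Its log2 fold change of -0.22 (SE 0.35) was 0.11 without that library. Unc5d measured 23, 6.81 and 16 CPM with GFP and 40.4, 9.87 and 31.9 CPM with NeuroD1, and low replicates in both groups made them overlap. Unc5b, Unc5c and Dcc, the attractive netrin receptor, overlapped as well (log2 fold changes 0.02 (SE 0.24), 0.43 (SE 0.36) and 0.11 (SE 0.38)).

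**Figure D3:**
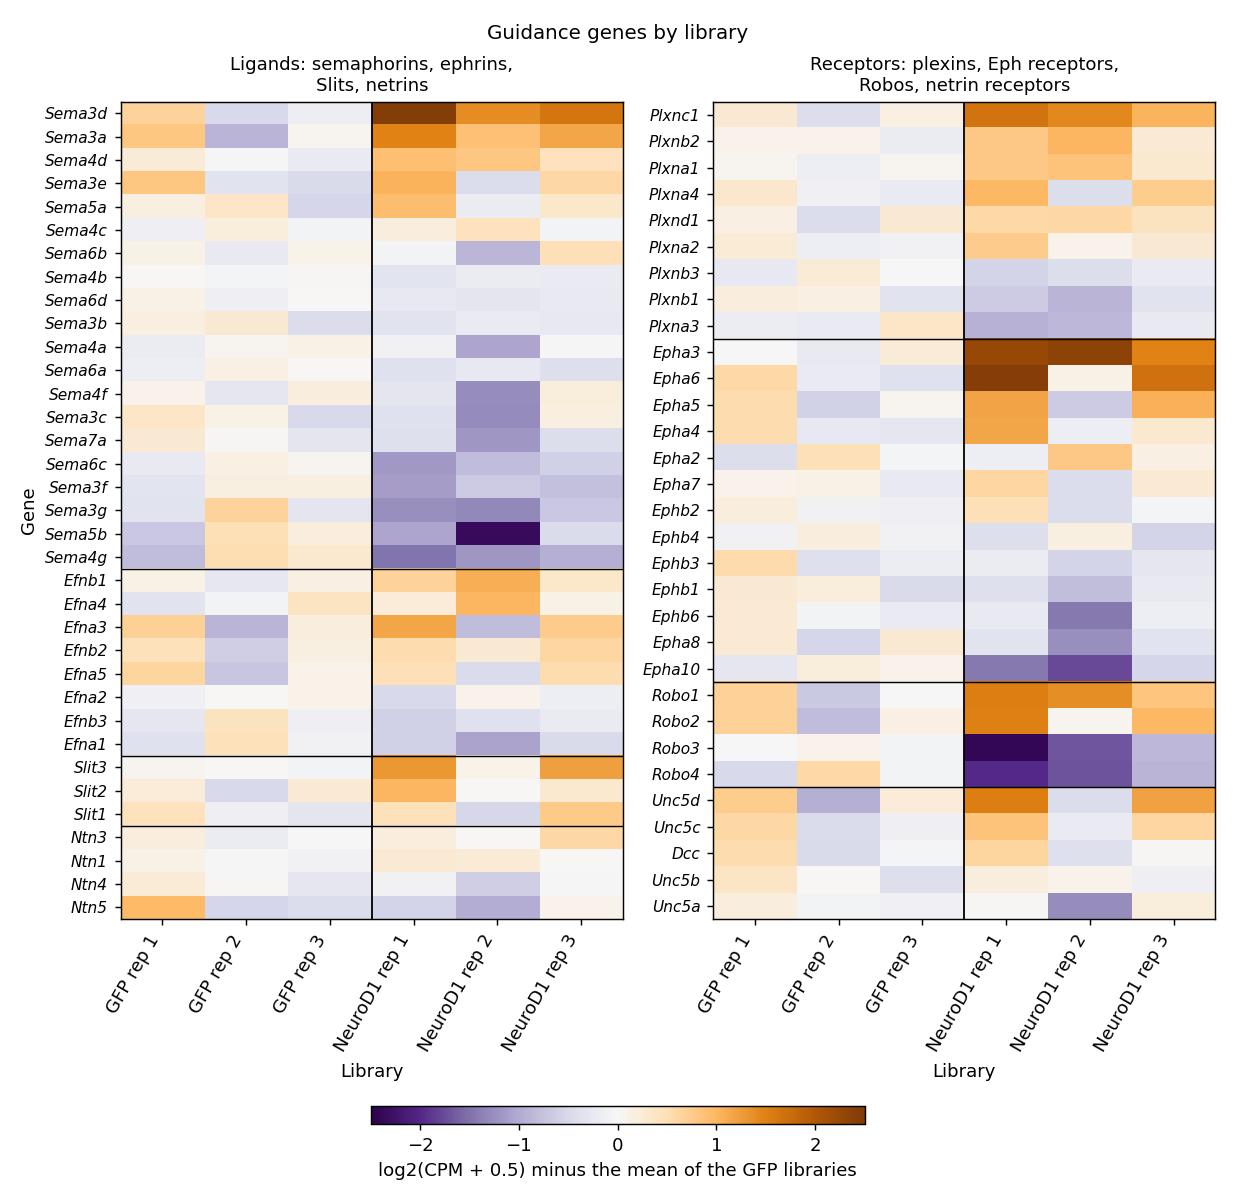
Colour gives log2(CPM + 0.5) of the tested guidance genes of the 8 families minus their mean over the GFP libraries, with libraries in columns and genes in rows, grouped by family (black lines) and ordered by fold change. Sema3d, Epha3, Plxnc1 and Robo1 are above the GFP mean in all 3 NeuroD1 columns, Robo3 and Robo4 below it, and NeuroD1 replicate 2 is the lowest column in Sema5b, Ephb6 and Unc5a.

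NeuroD1 replicate 2 held the lowest value of 24 tested guidance genes (35.8%), while it held the lowest value of 22.4% of all tested genes. NeuroD1 replicate 1 held the highest value of 22 (32.8%, against 17.5% of all tested genes). A list of 15 neuronal markers summed to 10324, 5388 and 6849 CPM in the GFP libraries and 7790.4, 3690.4 and 10055 CPM in the NeuroD1 libraries, lowest in NeuroD1 replicate 2. In bulk tissue, fewer cells of a type and less RNA per cell cannot be told apart. Relative to that neuronal sum, Unc5a was 0.938, 1.51 and 1.145 percent in the GFP libraries and 1.11, 0.952 and 0.977 percent in the NeuroD1 libraries, so its groups overlapped. Epha6 was 0.0324, 0.0322 and 0.0222 percent in the GFP libraries and 0.174, 0.0629 and 0.0777 percent in the NeuroD1 libraries, higher in every NeuroD1 library than in any GFP library. Unc5d, Epha5 and Ephb6 overlapped in CPM and did not on this scale. The share of all tested genes that separate on this scale was not counted, so it is not shown to be particular to them. Abundant markers weigh most in the neuronal sum, as with Camk2a at 2581 CPM and Neurod6 at 19.5 CPM on average with GFP. The mean sum with NeuroD1 was 0.955 of that with GFP, while the median log2 fold change of the list was 0.21. This scale therefore gives no level per neuron. Unc5d was 0.223, 0.126 and 0.233 percent in the GFP libraries and 0.518, 0.267 and 0.317 percent in the NeuroD1 libraries. Epha5, also higher, was 0.34, 0.295 and 0.362 percent in the GFP libraries and 0.712, 0.406 and 0.506 percent in the NeuroD1 libraries. Ephb6, lower with NeuroD1 on this scale, was 0.963, 1.46 and 1.05 percent in the GFP libraries and 0.904, 0.818 and 0.743 percent in the NeuroD1 libraries. Robo3 was 0.685, 1.4 and 0.984 percent in the GFP libraries and 0.168, 0.59 and 0.392 percent in the NeuroD1 libraries, lower in every NeuroD1 library. Epha10 was lower too, at 0.334, 0.91 and 0.655 percent in the GFP libraries and 0.197, 0.328 and 0.288 percent in the NeuroD1 libraries. On the neuronal list 1 of 15 genes was higher and 0 lower at an unadjusted p under 0.05 (median 0.21), and none was at 0 in all libraries.

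Lists of other cell type markers are set against the 24.0% of all tested genes at an unadjusted p under 0.05 (12.5% higher and 11.5% lower). Endothelial markers were lower with NeuroD1 in 15 of 19 genes and higher in 0 at an unadjusted p under 0.05, with a summed level of 1164 to 1785 CPM with GFP and 535 to 974 CPM with NeuroD1, and none was at 0 in all libraries. Robo4, Sema3g and Efna1 had the same sign. Of the 11 guidance genes often used as endothelial or mural markers, to which they belong, 7 had a lower fitted level and 4 a higher one. Robo4 remained lower relative to the endothelial sum, at 1.6, 2.31 and 2.23 percent in the GFP libraries and 1.23, 1.33 and 1.49 percent in the NeuroD1 libraries. The log2 fold change of Robo4, -1.57, lay within those of the 19 listed markers, which ran from -1.75 to -0.38 (median -1.05). The share of all tested genes that separate on this scale was not counted. Sema3g, at 0.76, 1.05 and 0.803 percent in the GFP libraries and 0.873, 0.74 and 0.719 percent in the NeuroD1 libraries, overlapped between groups on that scale, and so did Efna1, at 0.709, 0.868 and 0.896 percent in the GFP libraries and 1.34, 0.836 and 0.802 percent in the NeuroD1 libraries.

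Markers of infiltrating myeloid cells were higher in 8 of 10 tested genes and lower in 0, with a sum of 129 to 172 CPM with GFP and 282 to 794 CPM with NeuroD1, and none of the 12 listed was at 0 in all libraries. Relative to that sum Plxnc1 overlapped between groups, at 32, 17.4 and 21.8 percent in the GFP libraries and 23.3, 11.7 and 24.9 percent in the NeuroD1 libraries. Sema4d was 84.5, 62.6 and 46.4 percent in the GFP libraries and 37.7, 20.4 and 44.4 percent in the NeuroD1 libraries, and Plxnb2 was 211, 187 and 129.6 percent in the GFP libraries and 95.3, 64.9 and 108 percent in the NeuroD1 libraries. Both were lower in every NeuroD1 library on this scale, the reverse of their CPM. The sum itself was 3.44-fold higher on average with NeuroD1, against fitted levels 1.65-fold higher for Sema4d and 1.64-fold higher for Plxnb2. Plxnb2 alone exceeded that sum in every GFP library, so this scale gives no level per cell. Fibroblast markers were higher in 10 of 12 genes and lower in 0, with a sum of 1575 to 2592 CPM with GFP and 2422 to 10022 CPM with NeuroD1, so the ranges overlapped. Relative to the fibroblast sum Sema3d overlapped too, at 0.798, 0.348 and 0.277 percent in the GFP libraries and 0.937, 0.218 and 1.07 percent in the NeuroD1 libraries, and so did Slit3, at 0.497, 0.492 and 0.281 percent in the GFP libraries and 0.400, 0.083 and 0.767 percent in the NeuroD1 libraries. Dividing-cell markers were higher in 10 of 12 genes and lower in 0, and their sum was 161 to 224 CPM with GFP and 273 to 966 CPM with NeuroD1. Oligodendrocyte markers were lower in 6 of 12 and higher in 0, with a sum of 11391 to 21593 CPM with GFP and 7425 to 9899 CPM with NeuroD1. Choroid plexus and ependymal markers were lower in 5 of 8, and GFP replicate 2 held the highest sum, 880 CPM, against 36.1 to 182 CPM in the others. Of the remaining lists, pericyte and smooth muscle genes had 2 of 13 higher and 7 lower, microglial genes 1 of 10 lower, astrocyte genes 3 of 12 lower, oligodendrocyte precursor genes 4 of 10 higher and striatal genes 1 of 9 higher. The precursor markers Pdgfra and Cspg4, both among the 4 higher, are also on the fibroblast list and the pericyte and smooth muscle list. Of all 10 precursor genes, 6 had a higher fitted level and 4 a lower one. The microglial (10%), striatal (11.1%) and neuronal (6.67%) shares were below that of all tested genes, and the astrocyte share (25%) was near it. How far these markers' cells contribute to the levels of other guidance genes was not tested.

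**Figure D4:**
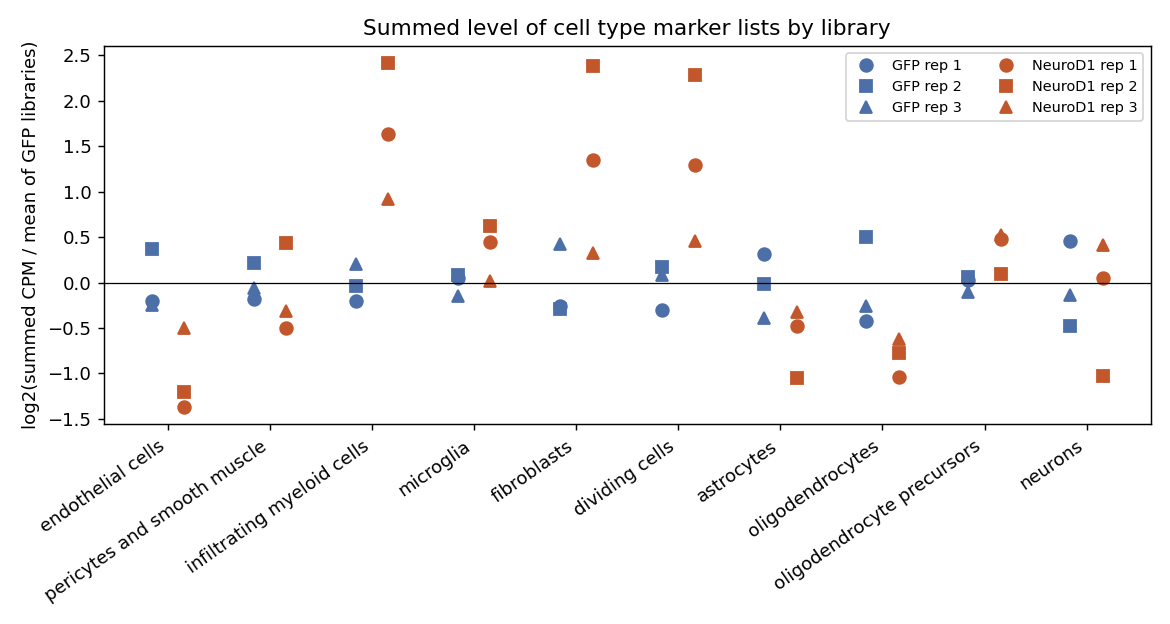
The vertical axis is log2 of the summed CPM of each marker list over the mean of the GFP libraries, with 1 symbol per library (blue GFP, orange NeuroD1). Endothelial and oligodendrocyte sums are below the GFP libraries in all 3 NeuroD1 libraries, myeloid and dividing-cell sums are above them, and the neuronal sum of NeuroD1 replicate 2 is the lowest of its list.

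Of 11 guidance genes often used as endothelial or mural markers, 1 was higher (Efnb1) and 4 lower (Robo4, Sema3g, Efna1 and Sema7a) at an unadjusted p under 0.05, with a median log2 fold change of -0.25. Ephb4 and Unc5b, receptors known from veins and from arteries, had log2 fold changes of -0.24 (SE 0.25) and 0.02 (SE 0.24). Efnb2, the arterial ligand of Ephb4, had 0.42 (SE 0.29). Of 8 often described in immune cells, 4 were higher (Plxnc1, Plxnb2, Plxna1 and Sema4d) and 1 lower (Sema7a), with a median of 0.58. At that p were 45.5% of the 11 genes and 62.5% of the 8, against 24.0% of all tested genes. Sema7a and Plxnd1 are on both lists.

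Genes that work with these ligands and receptors were counted on lists of other guidance cues and co-receptors, and of signalling proteins inside the growth cone. Of 36 co-receptors and other cues, 6 were higher and 0 lower at an unadjusted p under 0.05, or 16.7%, which is below the 24.0% of all tested genes, with a median log2 fold change of 0.42. The neuropilins, co-receptors of class 3 semaphorins, were among them. Nrp1 measured 86.1, 126 and 108 CPM with GFP and 252, 440.2 and 157 CPM with NeuroD1 (log2 fold change 1.41, SE 0.37; edgeR adjusted p = 0.137). Nrp2 measured 55.5, 52.1 and 38.7 CPM with GFP and 124, 169 and 82.2 CPM with NeuroD1 (log2 fold change 1.36, SE 0.29; edgeR adjusted p = 0.136). Neither pair of groups overlapped, and NeuroD1 replicate 2 was the highest in both. The others were Flrt2 and Flrt3, ligands of Unc5 receptors, the neogenin ligand Rgmb and the proteoglycan Sdc3, with log2 fold changes of 1.03 (SE 0.24), 0.70 (SE 0.25), 0.99 (SE 0.30) and 0.55 (SE 0.22).

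Of 48 signalling proteins, 8 were higher and 5 lower (27.1%), with a median log2 fold change of 0.03. Higher ones were Dpysl3, a collapsin response mediator, at 0.93 (SE 0.23), the exchange factors Vav2 and Vav3, which act below Eph receptors, at 0.56 (SE 0.22) and 1.08 (SE 0.39), the kinases Pak2, Rock1 and Gsk3b at 0.66 (SE 0.22), 0.60 (SE 0.26) and 0.67 (SE 0.26), the adaptor Nck1 at 0.73 (SE 0.31) and the Ras regulator Rasa1 at 0.67 (SE 0.22). Lower ones included the actin-binding protein Ablim1 at -0.71 (SE 0.27), Mical3, of a family that acts below plexins, at -0.75 (SE 0.23), Farp1 at -0.66 (SE 0.21) and the kinase Cdk5 at -0.54 (SE 0.22), all as log2 fold changes. By edgeR, 0 genes of either list passed after adjustment over all genes.

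The guidance genes with an unadjusted p under 0.05 differed in gene size by direction. The 11 higher genes had a median annotated span of 206 kb (from start to end, introns included) and the 12 lower genes 16.6 kb. Among all tested genes at that p, the medians were 42.6 kb for the higher and 15.9 kb for the lower. Epha6, Robo1, Slit3 and Sema3a were the 4 longest of the 23, and Sema5b was the single lower gene over 100 kb. Of the 30 tested guidance genes over 100 kb, 24 had a higher fitted level with NeuroD1, against 11 of 37 shorter ones. Among all tested genes with a span, 66.5% of those over 100 kb and 49.3% of the others had a higher fitted level. Spearman's rho between span and log2 fold change was 0.54 across the 67 guidance genes and 0.25 across 14327 genes, as a description, since genes share libraries, depth and base composition. GC content of the transcript had a rho of -0.45 and -0.29. Offsets for exon length and GC, not for span, were then added to the model. With them, rho with span was 0.35 for guidance genes and 0.06 for all genes. Of the 23 genes, 20 kept a p under 0.05.

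**Figure D5:**
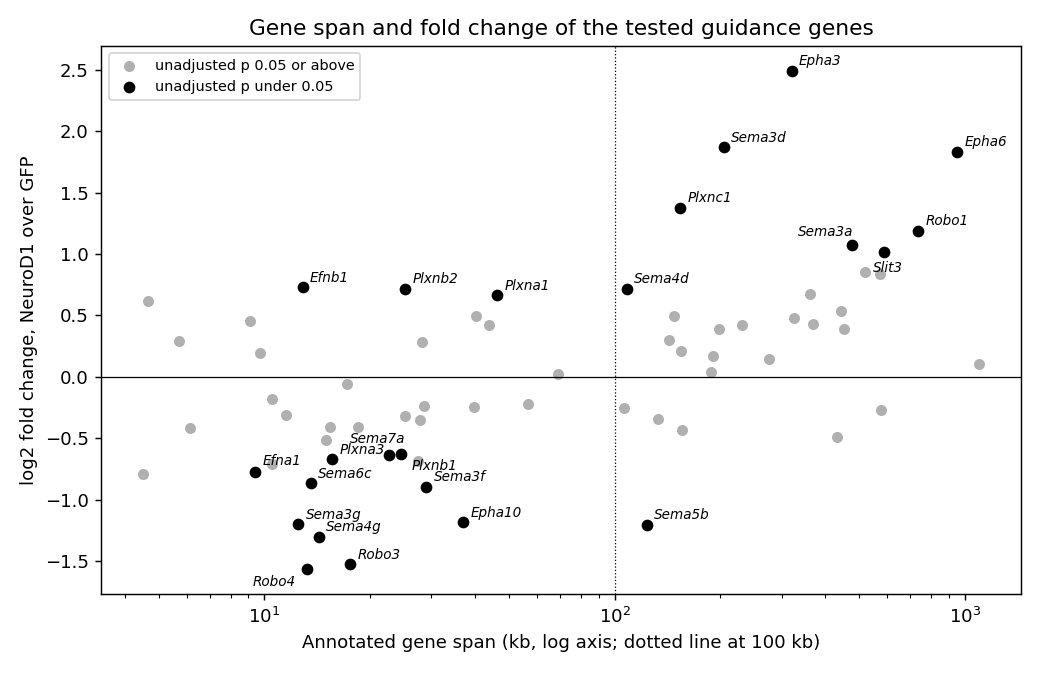
Each point is a tested guidance gene, with its annotated span in kilobases (horizontal log axis, dotted line at 100 kb) and its log2 fold change of NeuroD1 over GFP (vertical axis). Black points have an unadjusted p under 0.05. Most black points above 0 lie right of the line and all below 0 except Sema5b lie left of it.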

How the data were processed

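The authors deposited raw read counts per gene symbol, made by featureCounts on mm10 gene models, per the file headers. The submitters' processing notes list GRCm38, HISAT2 2.0.1 and DESeq2 1.16.1 but give them no role. No source used here gives the strand setting or annotation release, so overlapping genes cannot be told apart. Library totals were 7753101 to 9698795 counts with GFP and 10843273 to 13440244 with NeuroD1, so 1 count was worth 0.0753 to 0.134 CPM after scaling. Pairs of replicates differed by a chi-square per gene of 33.8 or more, far above sampling noise, so none was merged.

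The main test was edgeR 4.0.16 (quasi-likelihood F-test, TMM scaling, filterByExpr with minimum count 10) in R 4.3.3, with treatment as the single term, fitted on the whole table and adjusted by Benjamini-Hochberg over 14852 genes. Alternatives were DESeq2 1.42.0, limma-voom (limma 3.58.1), other scalings and filters (minimum count 30 or none), a replicate block, counts thinned to 7753101 per library, offsets for exon length and GC, and leaving out each library. Each SE given for a log2 fold change was the absolute log2 fold change divided by the square root of edgeR's F statistic. The tests were tested on simulated data. Positions and exon lengths came from GENCODE M21 (GRCm38), where all 69 genes matched.

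The genes, lists and tests were chosen with earlier results of these data known. Named genes were, per family, the 3 with the smallest p (5 in families of more than 8 tested) and the one with the highest level per kilobase, which gave 33 genes. Sema4d, Sema3a, Sema5b and other genes named outside that rule were chosen after their values were seen. Pairs for count ratios, and genes set against marker sums, were chosen in the same way. Each pair set a gene higher without overlap over a gene lower without overlap. Those ratios therefore had to separate the groups and add nothing to the single genes. A gene of the signalling list is not reported here.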

Additional observations from a re-analysis of the deposited data

How the results depend on the processing

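With all libraries, edgeR gave 0 guidance genes past the adjusted threshold under both other scalings, with no filter or a stricter one, with thinned counts and with length and GC offsets, and limma-voom also gave 0. DESeq2 called 13 guidance genes and 1366 genes in all. With the replicate block, edgeR called 5 guidance genes and 479 genes in all, or 3.23% of those tested. The 5 were Epha3, Sema3d, Plxnc1, Robo2 and Sema4g. The labels do not say that a number is shared by paired animals, and deviations of same-numbered libraries correlated at 0.54, 0.37 and 0.04 for replicates 1, 2 and 3, so the block was not taken as pairing. GFP replicate 3 correlated better with NeuroD1 replicate 2 (0.13). Leaving out 1 library gave 6 to 14 higher and 7 to 13 lower guidance genes at an unadjusted p under 0.05, 0 past the adjusted threshold, and 0 to 1 genes in all. The cause of these changes was not tested. The median log2 fold change of guidance genes stayed within the spread between replicates under every alternative run. Of the 33 named genes, 2 changed sign under any alternative. The log2 fold change of Unc5a was 0.034 with length and GC offsets and ranged from -0.49 to 0.11 with 1 library left out. That of Ntn5 ranged from -1.11 to 0.063, the highest without GFP replicate 1. The replicate block changed no other call among the named genes.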
